A study of Danio rerio with 15 samples.

Results

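Genes for the assembly and nuclear export of the large (60S) ribosomal subunit were followed in whole zebrafish embryos given a brief waterborne exposure to tris(4-chlorophenyl)methanol (TCPMOH). The members are 50 gene symbols chosen by name, each matched to the symbol column of the authors' deposited table of 36351 genes, keeping the row with the highest base mean, the average normalized count over the libraries. No symbol had more than 1 row. The table held 49 of the 50, and 48 of these had an adjusted p-value. The member without an adjusted p was surf6, whose base mean of 46.3 lay under the 49.1 of the lowest tested gene. The symbol brix1 matched no row. A row named bxdc2, described there as a brix domain gene, is probably the same gene, though no source used here pairs the symbols. This row was chosen after its value was seen and is not counted among the members. It had a log2 fold change of -0.29 (standard error, SE, 0.0917, adjusted p = 0.0517 by DESeq2) in the authors' deposited table, and a gene's value below is this log2 fold change unless a base mean is named.

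All groups were wild-type AB strain embryos, exposed through the water for 4 hours, from 96 to 100 hours post fertilization. Controls received dimethyl sulfoxide (DMSO, the solvent) at 0.01% v/v, and the other groups 50 nM of tris(4-chlorophenyl)methane (TCPM) or of TCPMOH. Each group has 5 pools of 8 to 10 whole embryos, 15 pools in all, drawn from 3 experimental replicates that the labels do not tie to single pools. The deposited comparison covers the DMSO and TCPMOH groups, and TCPM was not analysed here.

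The sign of the deposited fold changes has to be read with care. The comparison is named with DMSO first, and the numerator is named nowhere in the header. If DMSO was the reference, a negative value means less transcript after TCPMOH, and if DMSO was the numerator it means more. Signs are therefore given as deposited, and neither group is called higher. In the authors' deposited table cyp1a, a target gene of the aryl hydrocarbon receptor, stood at -0.78 (SE 0.107), on the same side of 0 as most members. The heat shock gene hsp70l also lay on that side in the authors' deposited table, at -1.05 (SE 0.0930). Neither value tells which group is the numerator, and neither was used to set a direction.

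The large subunit is built around ribosomal RNA in the nucleolus, where chaperones, methyltransferases and scaffold proteins fold and process the precursor. GTPases and AAA ATPases then strip assembly factors from the particle as it passes through the nucleoplasm. The adaptor Nmd3 carries it through the nuclear pore, and a last set of factors makes it competent for translation in the cytoplasm. Zebrafish larvae with disturbed assembly factors are known for small eyes, gut and exocrine pancreas, organs that grow fast at this age.

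Nearly all of these genes lay on one side of 0 in the comparison of DMSO with TCPMOH. Of the 48 tested members, 46 had a negative and 2 a positive log2 fold change in the authors' deposited table, against 50.6% negative among all 19257 tested genes. The authors' DESeq2 Wald test called 11 members at an adjusted p under 0.05, which is 22.9% of those tested, against 2.68% of all tested genes. All 11 were negative, a sign that 1.92% of all tested genes were called with. An unadjusted p under 0.05 was reached by 30 members, all of them negative, while 7.62% of all tested genes reached it with that sign. The members' median was -0.21, with a middle range from -0.25 to -0.14, and the median of all tested genes was -0.00159. These shares describe a list chosen by name with earlier results of these data known, and carry no test of their own.

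**Figure D1:**
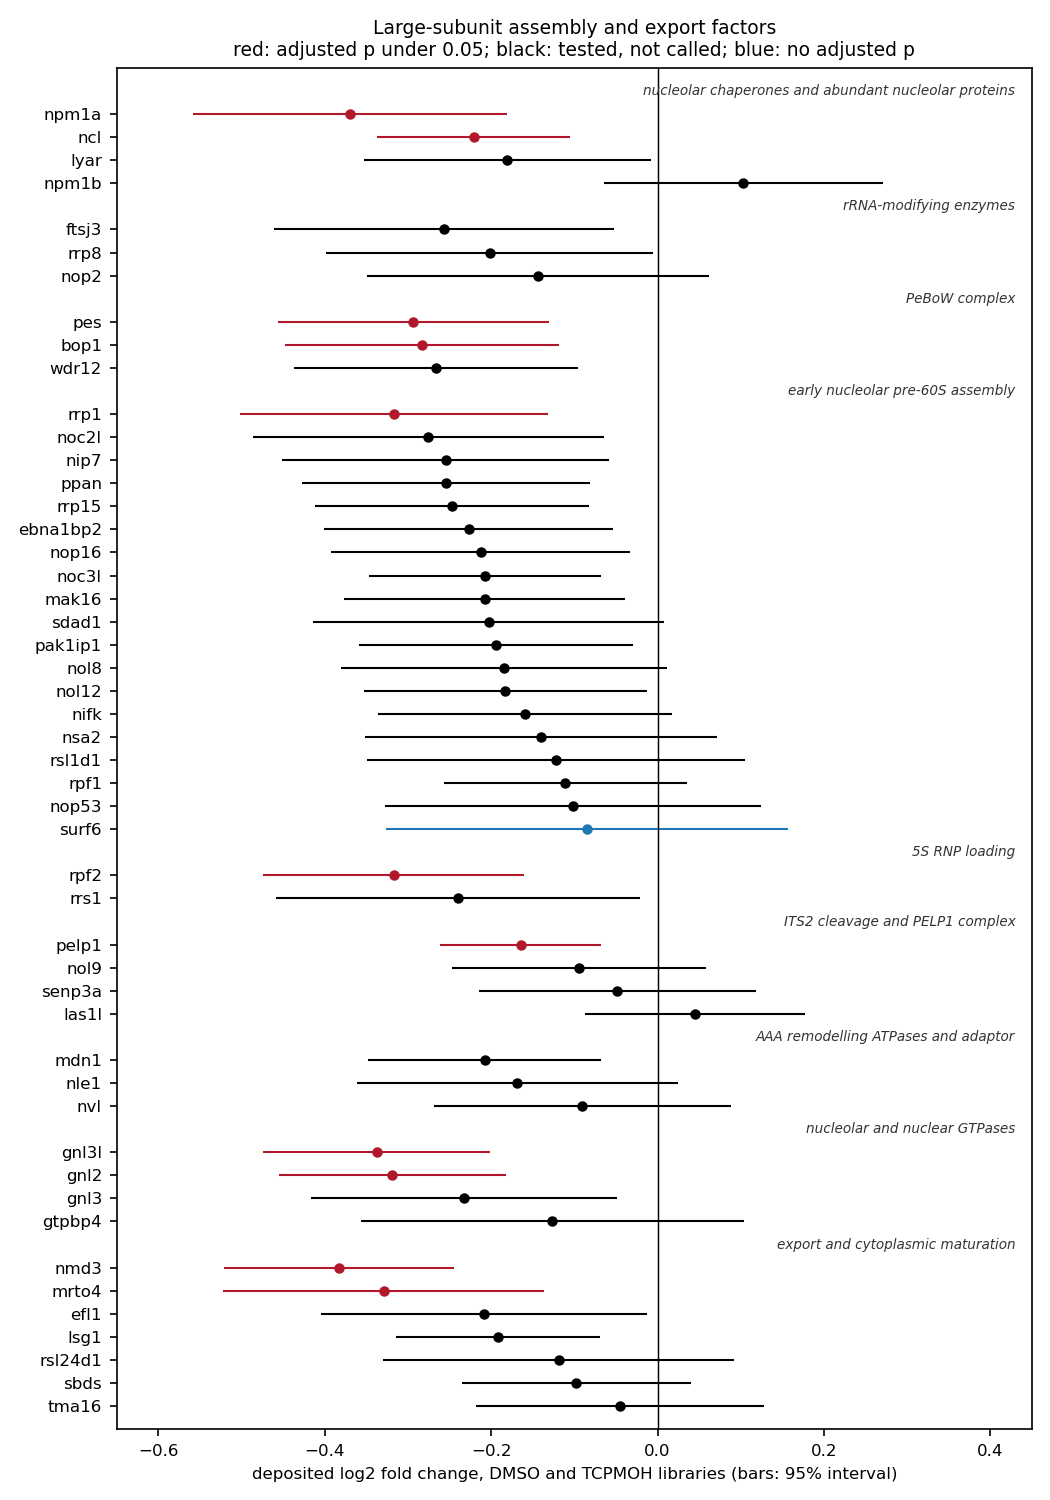
Deposited log2 fold change of each member (x axis), grouped by role, with bars for the 95% interval from its SE. Points in red had an adjusted p under 0.05 (11 genes), black points were tested and not called (37 genes) and the blue point, surf6, had no adjusted p. All points but npm1b and las1l lie left of 0.

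The differences were small. As deposited, the 11 called members differed between the groups by 1.12-fold to 1.30-fold, with a median of -0.32 on the log2 scale. A negative value of at least 0.2 in size was found for 26 of the 48 tested members and for 5.84% of all tested genes, and one of at least 0.3 for 7 members and for 1.60%. As deposited, the 95% intervals of 44 tested members excluded a negative change of 0.5. The deposited values appear to have been shrunken toward 0, since no SE exceeded 0.124 and the median SE was 0.0245 at base means under 1. Undoing that shrinkage, which was tried once the data had been seen, put the members' median at -0.23. Some single members moved further, such as noc2l from -0.28 to -0.37 and rrs1 from -0.24 to -0.33, while pelp1 moved from -0.16 to -0.17. Among the called members npm1a moved from -0.37 to -0.45, past nmd3, which moved from -0.38 to -0.42. The folds given here are those of the deposited values. The intervals were not recomputed in this way, so the exclusion of 0.5 holds for the shrunken values only. The tissue is the whole embryo, so a difference in the number of cells of a type and one in RNA per cell cannot be told apart for any of these genes.

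The count of 11 depends on how the statistics are treated. It was 7 with no filter on low base means (without bop1, mrto4, pelp1 and rrp1), where 0.965% of all tested genes were called negative. It was 5 after the groups' summed counts were made equal (nmd3, gnl3l, gnl2, rpf2 and npm1a), where that share was 1.13%. It was 2 (nmd3 and gnl3l) with the Wald statistics rescaled to their own spread, where it was 0.478%. The share with no filter is over 32336 genes, and the others are over 19257. Negative calls over all genes numbered 370 as deposited and 312 with no filter. They numbered 218 with the sums made equal and 92 with the Wald statistics rescaled. After the sums were made equal 45 of the 48 tested members were negative.

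Among the nucleolar chaperones, npm1a led. It encodes nucleophosmin, an abundant chaperone of histones and ribosomal proteins, and lies on chromosome 10 from 22034477 to 22045119. In the authors' deposited table it stood at -0.37 (SE 0.0962, adjusted p = 0.00889 by DESeq2) at a base mean of 2975, a 1.29-fold difference. Its paralog npm1b stood at 0.10 (SE 0.0855, adjusted p = 0.657 by DESeq2) in the authors' deposited table, one of the 2 positive members. The difference between the paralogs was -0.47 log2 units, with a 95% interval from -0.72 to -0.22 if their errors are taken as independent, which could not be checked without values per library. The paralogs were thus separated by more than their combined error, with npm1b on the other side of 0. The comparison was not planned, and its interval makes no allowance for the choice of this pair. How reads of similar stretches were divided between them is uncertain.

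The nucleolin gene ncl (chromosome 22 from 36673312 to 36690751) encodes an RNA-binding protein of the nucleolus. It had a base mean of 9853 and stood at -0.22 (SE 0.0592, adjusted p = 0.0121 by DESeq2) in the authors' deposited table, a 1.17-fold difference. Its call was lost, at -0.16, with the trend of fold change over base mean removed (adjusted p = 0.136, recomputed from the DESeq2 statistics). The nucleolar zinc finger gene lyar was at -0.18 in the authors' deposited table and was not called. Of the genes for enzymes that methylate ribosomal RNA, ftsj3 (ribose methylation) stood at -0.26, rrp8 (base methylation) at -0.20 and nop2 (cytosine methylation) at -0.14 in the authors' deposited table. None of these was called, and ftsj3 and rrp8 had an unadjusted p under 0.05.

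The PeBoW complex, whose subunits act together in maturation of the 28S and 5.8S ribosomal RNAs, held close values. Its scaffold gene pes (chromosome 5 from 12836913 to 12865386), named pescadillo after the zebrafish mutant, stood at -0.29 (SE 0.0832, adjusted p = 0.0217 by DESeq2) in the authors' deposited table. The gene of its partner bop1 (chromosome 19 from 2930132 to 3056235) stood at -0.28 (SE 0.0840, adjusted p = 0.0334 by DESeq2) in the authors' deposited table. The remaining subunit gene, wdr12, was at -0.27 (SE 0.0871) in the authors' deposited table and was not called (DESeq2 adjusted p = 0.0704). The subunits thus spanned 0.03 log2 units in the deposited values, less than the SE of any of them. The calls of pes and bop1 were lost after the groups' sums were made equal (adjusted p = 0.0765 and 0.0990, recomputed from the DESeq2 statistics).

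The early nucleolar assembly factors formed the largest group, with 18 tested members, all negative. Of these, 1 was called (5.56%), against 2.68% of all tested genes. That one was rrp1 (chromosome 9 from 135376 to 153421), known from yeast as a factor in processing of the large-subunit RNA. It stood at -0.32 (SE 0.0945, adjusted p = 0.0344 by DESeq2) in the authors' deposited table, at a base mean of 983. Its call was lost with the trend over gene span removed (adjusted p = 0.0507 from the DESeq2 statistics). Next came noc2l, of the nucleolar NOC complexes, at -0.28, the pre-RNA processing gene nip7 at -0.25, the Brix-domain gene ppan at -0.25 and rrp15 at -0.25 in the authors' deposited table. The gap between rrp1 and noc2l was 0.04 log2 units, which is below the SE of either, so the call of one and not the other does not set them apart.

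Further early factors in the authors' deposited table were ebna1bp2 (-0.23), nop16 (-0.21), noc3l (-0.21), mak16 (-0.21), sdad1 (-0.20), pak1ip1 (-0.19), nol8 (-0.18) and nol12 (-0.18). Of these, ebna1bp2, nop16, noc3l, mak16, pak1ip1 and nol12 had an unadjusted p under 0.05. The smallest values of the group in the authors' deposited table belonged to nifk, whose protein binds the proliferation protein Ki-67 (-0.16), nsa2 (-0.14), rsl1d1 (-0.12), the Brix-domain gene rpf1 (-0.11), nop53 (-0.10) and the untested surf6 (-0.08). None of these 6 reached an unadjusted p of 0.05. Their order rests on the shrunken values. With the inferred shrinkage undone nsa2 stood at -0.19 and rsl1d1 at -0.18, near nol12 at -0.21, and nop53 at -0.15 passed rpf1 at -0.12.

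The genes rpf2 and rrs1 encode partners known from yeast to bring the 5S RNA particle to the growing subunit. In the authors' deposited table rpf2 (chromosome 20 from 150890 to 154989) stood at -0.32 (SE 0.0800, adjusted p = 0.00607 by DESeq2), a 1.25-fold difference at a base mean of 810. Its partner rrs1 stood at -0.24 in the authors' deposited table with a larger SE of 0.112 and was not called (DESeq2 adjusted p = 0.303). The 95% interval of rrs1, from -0.46 to -0.02, holds the value of rpf2.

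The group around cleavage of the ITS2 spacer had the smallest values. The scaffold gene pelp1 (chromosome 7 from 26006819 to 26026538) was called at -0.16 (SE 0.0493, adjusted p = 0.0356 by DESeq2) in the authors' deposited table. That is the smallest change and the smallest SE among the called members. The RNA kinase gene nol9 (-0.09) and the SUMO protease gene senp3a (-0.05) were not called in the authors' deposited table. The endonuclease gene las1l, at 0.04 (95% interval from -0.09 to 0.18), was the other positive member of the authors' deposited table. That interval and the one of senp3a (from -0.22 to 0.12) leave room for a small change of either sign. The call of pelp1 was lost in each of the alternatives that removed a trend, made the sums equal, dropped the filter or rescaled the Wald statistics (adjusted p from 0.0524 to 0.449, from the DESeq2 statistics).

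AAA ATPases pull assembly factors off the particle. The giant ATPase gene mdn1 stood at -0.21 (SE 0.0715, adjusted p = 0.0955 by DESeq2) in the authors' deposited table and was not called. It was called after the trend of fold change with gene span was removed, at -0.24 (adjusted p = 0.0317 from the DESeq2 statistics). The gene of its adaptor nle1 was at -0.17 and the ATPase gene nvl at -0.09 in the authors' deposited table, neither with an unadjusted p under 0.05.

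Nucleolar and nuclear GTPases held 2 of the 3 members with the smallest p. The gene gnl3l (chromosome 11 from 25485774 to 25502491), related to nucleostemin, stood at -0.34 (SE 0.0697, adjusted p = 2.42e-04 by DESeq2) in the authors' deposited table. The gene gnl2 (chromosome 16 from 33902006 to 33925910), whose yeast counterpart acts before nuclear export, stood at -0.32 (SE 0.0695, adjusted p = 6.80e-04 by DESeq2) in the authors' deposited table. These were 1.26-fold and 1.25-fold differences. Nucleostemin itself, gnl3, was at -0.23 (SE 0.0937) in the authors' deposited table and not called. The difference between gnl3l and gnl3 was -0.10 (95% interval from -0.33 to 0.12, errors taken as independent), so these relatives did not separate beyond their error. The remaining GTPase gene, gtpbp4, was at -0.13 in the authors' deposited table with an SE of 0.117.

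Nuclear export and cytoplasmic maturation held the strongest single result. The export adaptor gene nmd3, on chromosome 15 from 1653779 to 1672461, stood at -0.38 (SE 0.0705, adjusted p = 1.65e-05 by DESeq2) in the authors' deposited table, at a base mean of 943. This is a 1.30-fold difference with a 95% interval from -0.52 to -0.24, and the gene ranked 64th of the tested genes by p. It kept its call in each alternative that was run, as did gnl3l. The gene mrto4 (chromosome 11 from 41839861 to 41853874), whose product holds the place of the ribosomal stalk protein P0, stood at -0.33 (SE 0.0985, adjusted p = 0.0355 by DESeq2) in the authors' deposited table. Its span overlaps that of akr7a3 on the opposite strand, a gene at -0.18 in the authors' deposited table, and no source used here says whether counting used strand. The call of mrto4 was lost with the trend over gene span removed (adjusted p = 0.0617 from the DESeq2 statistics).

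The other genes of this group had smaller deposited values than nmd3 and mrto4, and no comparison between steps was made. The GTPase gene lsg1, needed to release Nmd3, stood at -0.19 (SE 0.0626, adjusted p = 0.0706 by DESeq2) in the authors' deposited table. The GTPase gene efl1 was at -0.21 and its cofactor gene sbds, mutated in Shwachman-Diamond syndrome, at -0.10 in the authors' deposited table. The 95% interval of efl1, from -0.40 to -0.01, holds the value of nmd3. The gene rsl24d1, for a placeholder of a ribosomal protein, was at -0.12 and tma16 at -0.05 in the authors' deposited table. Of the 7 genes of this group 2 were called (28.6%, against 2.68% of all tested genes). An unadjusted p under 0.05 was reached by 4, all with the same sign.

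Precision differed among members with high counts. Of the 13 members with a base mean of at least 1000, 6 had an SE over 0.1, a grouping made after the values were seen. They were sdad1, nsa2, gtpbp4, rsl1d1, rsl24d1 and nop53, with values from -0.20 to -0.10 in the authors' deposited table, and none was called. Among all 4101 tested genes with base means from 1000 to 10000 the median SE was 0.0707, and 0.0989 was its 90th percentile. By contrast ncl and pelp1 had the small SEs of 0.0592 and 0.0493 in the authors' deposited table and were called at modest values. With the inferred shrinkage undone the 6 ran from -0.27 (sdad1) to -0.15 (nop53), and ncl and pelp1 stood at -0.24 and -0.17. As the Wald statistic divides a value by its SE, a group picked for large SEs is less likely to hold calls.

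**Figure D2:**
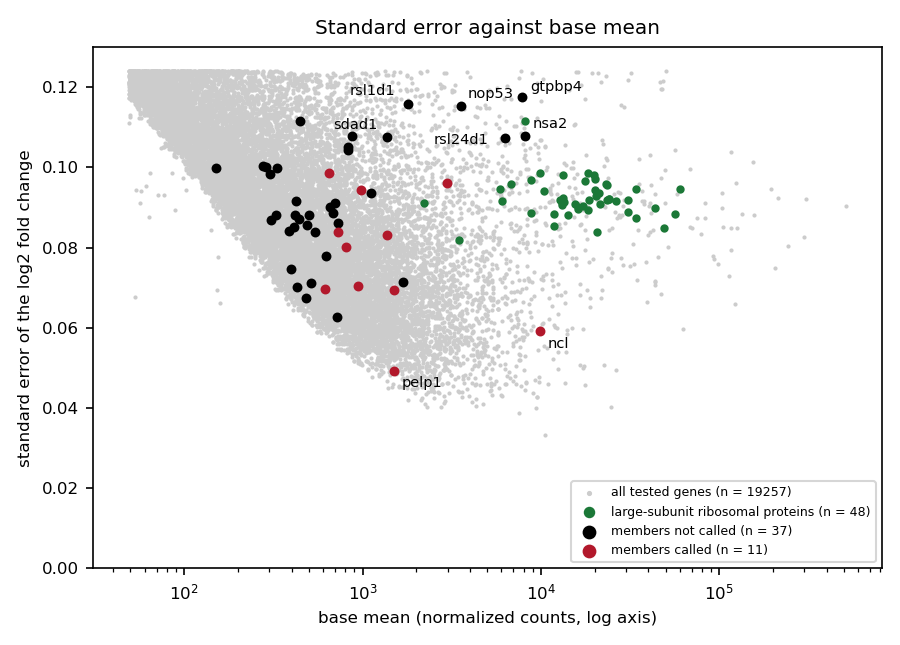
Standard error of the log2 fold change (y axis) against base mean in normalized counts (x axis, log scale) for all tested genes (grey), large-subunit ribosomal protein genes (green) and members that were called (red) or not called (black). The labelled uncalled members, such as gtpbp4 (SE 0.117) and nop53 (SE 0.115), lie above the called ncl (0.0592) and pelp1 (0.0493).

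The members were spread over 23 chromosomes, with at most 5 on one, and the 11 called genes lay on 10. Of the 11, bop1, mrto4 and npm1a overlap a gene with a base mean of at least 10% of their own, each on the opposite strand. These neighbours were scxa (-0.14), akr7a3 (-0.18) and slc37a4b (-0.07) in the authors' deposited table, and none was called. Among all members 18 overlap such a gene. The uncalled members ftsj3, nle1, ppan, rpf1, senp3a and surf6 do so on the same strand. For example, rpf1 (base mean 398) overlaps atp2b2 (base mean 8093, at -0.02 in the authors' deposited table). The effect of overlaps on the values was not tested. The members' median genomic span was 16566 bp, against 19647 bp for all tested genes, and with the trend of fold change over span removed their median was -0.19.

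Other genes of ribosome production lay on the same side. Of 29 tested large-subunit factors outside the members, 29 were negative and 7 were called (24.1%, against 2.68% of all tested genes). Their median was -0.21. The called genes in the authors' deposited table were urb1 (-0.35), ddx24 (-0.35), pwp1 (-0.30), mybbp1a (-0.29), ddx27 (-0.28), heatr3 (-0.25) and znf622 (-0.23). The yeast counterpart of znf622 acts in the cytoplasm, and ddx24 and ddx27 encode RNA helicases. Of 52 tested small-subunit factors, 51 were negative and 12 were called (23.1%), with a median of -0.23. Among the called ones in the authors' deposited table, the processome subunit gene tbl3 and tsr2 stood at -0.36 each, and the pre-40S GTPase-like gene tsr1 at -0.33. With the groups' sums made equal 4 and 7 genes of these lists were called, where 1.13% of all tested genes were called negative. With the Wald statistics rescaled 0 and 2 were called, where that share was 0.478%. The members' share of 22.9% and median of -0.21 lay near those of both lists, and no test of a difference between lists was made.

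Ribosomal protein genes of the large subunit shared the sign but held no call. All 48 tested were negative, with a narrow middle range from -0.15 to -0.12 and a median of -0.14. That median was -0.09 with the groups' sums made equal and -0.07 with the base mean trend removed. DESeq2 called none of them, and an unadjusted p under 0.05 was reached by 1, rpl30, which the authors' deposited table gives at -0.20 (SE 0.0908). The SEs of these ribosomal protein genes ran from 0.0819 to 0.112, with a median of 0.0918, against a median of 0.0882 for the tested members. These median SEs were close, while the medians of the values were -0.14 and -0.21. Why no ribosomal protein gene was called was not tested. Of 14 tested genes for RNA polymerase I and its factors 12 were negative, with a median of -0.16. Of the 14, 1 was called (7.14%, against 2.68% of all tested genes). The largest subunit gene, polr1a, was called at -0.25 (SE 0.0579, adjusted p = 0.00229 by DESeq2) in the authors' deposited table, a call lost with the Wald statistics rescaled.

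**Figure D3:**
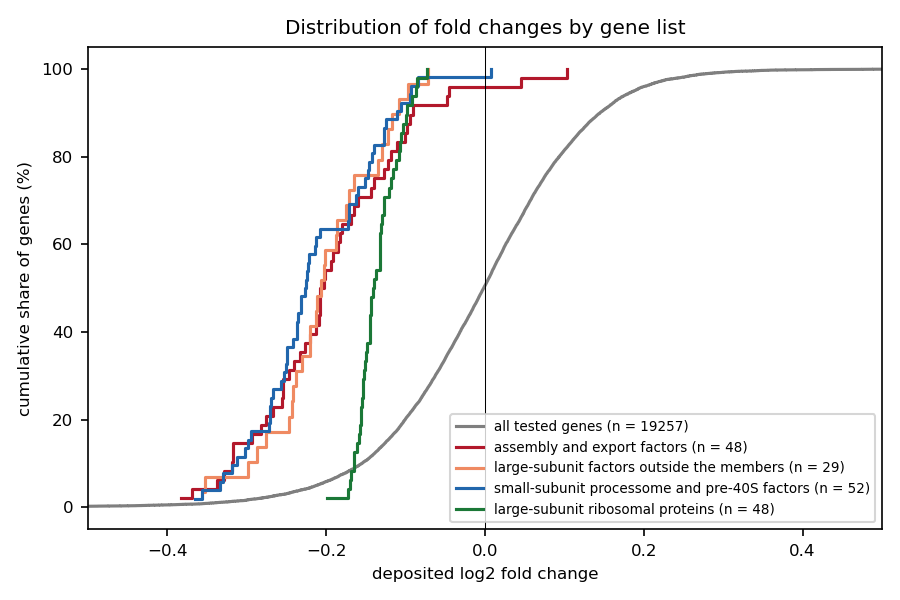
Cumulative share of genes (y axis, percent) at or below each deposited log2 fold change (x axis). The curves of the members (median -0.21), of other large-subunit factors (-0.21) and of small-subunit factors (-0.23) run together, ribosomal proteins form a steeper curve at -0.14, and all tested genes centre near 0.

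Lists of cell type markers lay on both sides of 0, and their calls were 2 negative genes of the intestine. Proliferating cell markers were on the opposite side, with 19 of 22 positive and a median of 0.11, and exocrine pancreas markers were positive in 16 of 16, with a median of 0.07. Neither list had a gene called by DESeq2, and 2 and 0 genes had an unadjusted p under 0.05. Among the first, mcm4 (0.24) and mcm3 (0.23) had the smallest p in the authors' deposited table. Intestinal epithelium markers shared the members' sign in 14 of 15 genes, with a median of -0.17. The 2 called (13.3%, against 2.68% of all tested genes) were apoa4a (-0.41) and mep1a.2 (-0.34) in the authors' deposited table. That count of 2 was 1 with no filter, with either centring and with either trend removed, 0 with the Wald statistics rescaled, and 4 at an adjusted p under 0.10. Markers of liver (10 of 11 negative, median -0.07) and skeletal muscle (13 of 15 negative, median -0.12) had no gene called by DESeq2 and 0 with an unadjusted p under 0.05. With the base mean trend removed the median was -0.01 for muscle, -0.03 for liver and 0.12 for exocrine pancreas, and with equal sums it was -0.08, -0.02 and 0.12. No marker row had a base mean of 0, levels per group were not analysed here, and the part of these cell types in the members' values was not tested.

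**Figure D4:**
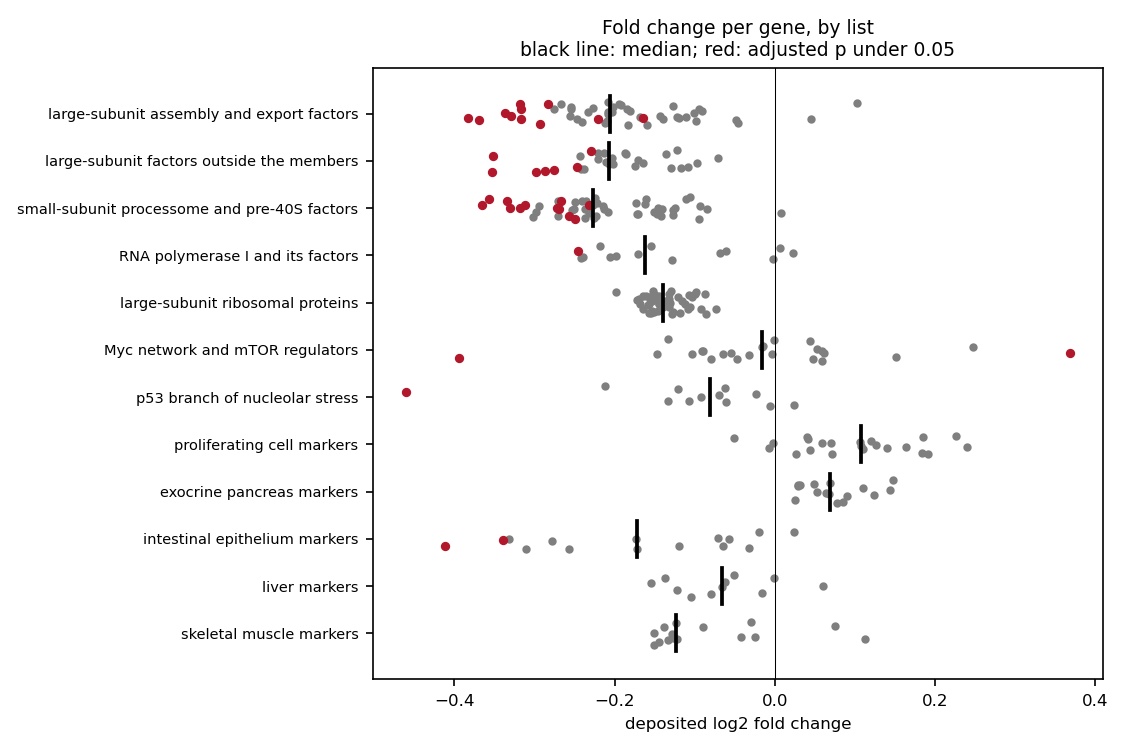
Deposited log2 fold change (x axis) of each tested gene in the members' list and in the other 11 lists, with a black line at each median and called genes in red. The lists of ribosome production lie left of 0, and those of proliferating cells (median 0.11) and exocrine pancreas (0.07) right of it.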

How the data were processed

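The authors' tools, per the submitters' processing notes and without versions, include DESeq2, featureCounts, STAR, cutadapt and FastQC. Gene models came from a version 4.3.2 GTF with Ensembl 99 identifiers, per the file headers. No source used here gives the genome build, and coordinates are printed unchanged from the table, with an unstated start (0 or 1). The authors deposited their DESeq2 statistics of DMSO against TCPMOH, with 0 columns per library, so depth per library is unknown.

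The deposited base mean is a signal, averaged by the authors from normalized counts of all libraries in their fit. The deposited fold change and its SE are log2 values. The Wald statistic is a score the authors deposited, equal to the fold change divided by its SE. The deposited p-values are two-sided, and a Benjamini-Hochberg adjustment over the 19257 tested genes matched the deposited adjusted ones within 5.17e-06. Nothing says that pools came from separate clutches, so p-values measure only the spread between pools.

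The members and the 11 other lists were chosen with earlier results of these data known. All members are named, SE and adjusted p are given for those called and the 12 with the smallest p, and each list's called genes, or the 2 with the smallest p, could be named. Beyond that rule, members and overlapping genes were given further values after these were seen. All member identifiers (49) matched the gene name table, 48 with the same symbol, and that of pes is named PES1 there. Alternatives changed the filter, threshold, centring, trends over span and base mean (lowess, fraction 0.3) and the spread of the Wald statistics. They were also run on simulated data, whose results are not given here. The simulated errors were independent between genes, so those runs do not cover lists of genes that move together. The planned search of promoters for motifs was not run, as no sequence was used here. The software was Python 3.11.15 with statsmodels 0.14.6, scipy 1.17.1, numpy 2.4.6, pandas 2.3.3 and matplotlib 3.10.9.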

Additional observations from a re-analysis of the deposited data

How the results depend on the processing

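The 11 negative calls among the members became 7 with no filter on low base means, 17 at an adjusted p under 0.10, 5 with the groups' summed counts made equal (a shift of 0.0477 log2 units) and 2 under the empirical null (spread of the Wald statistics 1.30). The count moved less in the other alternatives: 11 at base means of at least 200, 11 with the median of all tested genes at 0, 9 with the span trend removed and 9 with the base mean trend removed. No positive call arose among the members in any alternative, and their median ranged from -0.23 to -0.16. With equal sums tma16 moved to 0.00 and changed sign. The share of all tested genes called negative, 1.92% as deposited, was 0.965% with no filter, 2.81% at an adjusted p under 0.10, 1.13% with equal sums and 0.478% under the empirical null. In the alternatives where the count moved less, that share ran from 1.76% (span trend removed) to 2.55% (base means of at least 200). The number of tested genes was 32336 with no filter and 13887 at base means of at least 200, so these shares have other denominators. With equal sums the calls over all tested genes turned from 370 negative and 146 positive to 218 and 355. The cause of these differences was not tested. Each member was compared with its main value once per alternative. Of these comparisons, 399 kept sign and side of the threshold, 24 lost a call, 7 gained one and 1 changed sign. Most were of uncalled members, and all 24 losses fell among the 11 called ones. Leaving out replicates, count models and another tool would take values of single libraries and were not run. No paired analysis was possible because the deposited table has no column per library. The SEs, from 0.0493 to 0.117 for tested members, limit which small changes can be called.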

Other observations

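The list of regulators of ribosome production mixes activators and repressors. Its median and counts of sign therefore do not tell whether the regulators changed together. Of 24 tested genes of the Myc network and of mTOR signalling, 15 were negative and 9 positive, with a median of -0.02. The Myc-family gene mych was called at -0.39 (SE 0.0995, adjusted p = 0.00604 by DESeq2) in the authors' deposited table. The gene mxd3, for a Max-binding repressor of Myc targets, was called at 0.37 (SE 0.0789, adjusted p = 4.75e-04 by DESeq2) in the authors' deposited table. The calls of mych and mxd3 thus had opposite signs, and mych lost its call with the Wald statistics rescaled to their own spread.

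In the p53 branch that responds to nucleolar stress 11 of 12 tested genes were negative, with a median of -0.08, and 3 of the 12 are ribosomal protein genes also counted above. The cell cycle inhibitor gene cdkn1a was the called one, at -0.46 (SE 0.112, adjusted p = 0.00355 by DESeq2) in the authors' deposited table, on the same side as the members, and lost its call in that rescaling too.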
